A study of Mus musculus with 12 samples.

Results

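miR-330 is a microRNA made from 1 hairpin precursor, mir-330, whose 2 arms each give a mature miRNA, miR-330-5p and miR-330-3p. Its reads are those that the deposited tables place on the precursor mmu-mir-330, each counted once, and a read was assigned to the 5p or 3p arm by the side of the precursor middle on which it lay. This is 1 of 1532 precursors seen, with 20104 of 62878432 counted reads. Of these, 16969 reads were of miR-330-5p and 3135 of miR-330-3p, in 218 distinct sequences. mir-330 was chosen by its level, known beforehand to be lower in the Keluoxin libraries, so that level is described below without a test, and the tests concern the ratio of its arms and the make-up of each arm's reads.

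The libraries came from the retina of mice labelled C57BL/KsJ-db/db, a model of obesity and type II diabetes caused by loss of leptin receptor signalling. There were 6 libraries from mice labelled model, taken here as given no Keluoxin, and 6 from mice treated with Keluoxin, a Chinese herbal preparation. The sources used here state no dose, duration or age. Both groups carried the db/db mutation, and no non-diabetic mice were analysed here. The number after C in the strain label differs in every sample, up to C68BL/KsJ-db/db, and was not used. The tissue is labelled retina, although the extraction protocol mentions exosomes. Whether each library is a separate animal is not stated, so a p-value here reflects only the variation among these libraries, part of which may be technical.

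In the usual miRNA pathway, Drosha cuts the hairpin out of a longer transcript and Dicer removes its loop, leaving a duplex of a 5p and a 3p strand. One strand is kept in an Argonaute protein, where bases 2 to 8 from its 5′ end, the seed, find target messenger RNAs. The 5′ end therefore sets the seed, while the 3′ end can be shortened by nucleases or lengthened by enzymes that add U or A, giving variants of 1 miRNA called isomiRs. RefSeq lists 1 mature sequence for each arm, given here 5′ to 3′ with the seed in capitals.

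miR-330-5p in RefSeq: uCUCUGGGccugugucuuaggc
miR-330-3p in RefSeq: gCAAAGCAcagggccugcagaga

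In these libraries neither RefSeq form was the most frequent. The next sequences are the commonest reads of each arm, shown because the results turn on where they begin and end. The first 2 miR-330-5p reads stop 1 and 2 bases short of the RefSeq end. The most frequent miR-330-3p read begins 1 base later than RefSeq, which moves the seed by 1 base.

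miR-330-5p, 21 nt: uCUCUGGGccugugucuuagg
miR-330-5p, 20 nt: uCUCUGGGccugugucuuag
miR-330-3p, 22 nt: cAAAGCACagggccugcagaga

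The 21-nt read made up 4569 of the 16969 miR-330-5p reads (26.9%) and the 20-nt read 3841 (22.6%), whereas the whole RefSeq sequence accounted for 1116 (6.58%). The 22-nt read held 877 of the 3135 miR-330-3p reads (28.0%) and the RefSeq sequence 176 (5.61%).

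By the RefSeq table, mir-330 lies on the plus strand of mouse chromosome 7 at 19181465 to 19181562 of GRCm38.p6, with miR-330-5p at 19181486 to 19181507 and miR-330-3p at 19181525 to 19181547. It sits inside Eml2 (19176421 to 19206482, same strand), which encodes a microtubule-associated protein. Both mature sequences fall within an exon of the non-coding transcript Eml2-205 (19181332 to 19181548), while in the other 6 Eml2 transcripts that span it the locus is intronic in the GENCODE annotation. Predicted folding of the 98-nt precursor gave a hairpin with 64 paired bases, a minimum free energy of -42.5 kcal/mol and an unpaired loop at positions 46 to 58, counted from the precursor's first base. In that fold 19 of the 22 bases of miR-330-5p paired with the 3p arm. Position 22, the first base of miR-330-5p, paired with position 83, the last base of RefSeq miR-330-3p.

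Both arms had lower CPM in every Keluoxin library than in every model library. Levels are CPM, reads divided by a library size that was scaled by the trimmed mean method of edgeR. miR-330-5p ranged from 300.6 to 379.6 CPM in the model libraries (median 325.2) and from 172.5 to 244.3 CPM in the Keluoxin libraries (median 205.6). The mean was 329.8 ± 26.98 CPM in the model group and 208.0 ± 29.88 CPM in the Keluoxin group (SD, n = 6 each), a log2 fold change of −0.67 (SE 0.11) or 0.630 times the model level. No library of either group lay within the range of the other.

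The less abundant arm was lower by a like factor. miR-330-3p ranged from 44.19 to 68.18 CPM in model (median 60.82) and from 28.71 to 43.43 CPM in Keluoxin (median 36.05). Its means were 59.76 ± 9.0 and 36.86 ± 5.3 CPM (SD, n = 6 each), a log2 fold change of −0.70 (SE 0.15). For this arm the highest Keluoxin and the lowest model library nearly met. Among all 811 arms tested, 64 (7.89%) passed the threshold as lower in Keluoxin and 33 (4.07%) were lower in every Keluoxin than in every model library; these shares are the background to the choice of mir-330 and nothing is read from them. In a bulk sample, fewer cells that make an miRNA and less of it per cell cannot be told apart.

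**Figure D1:**
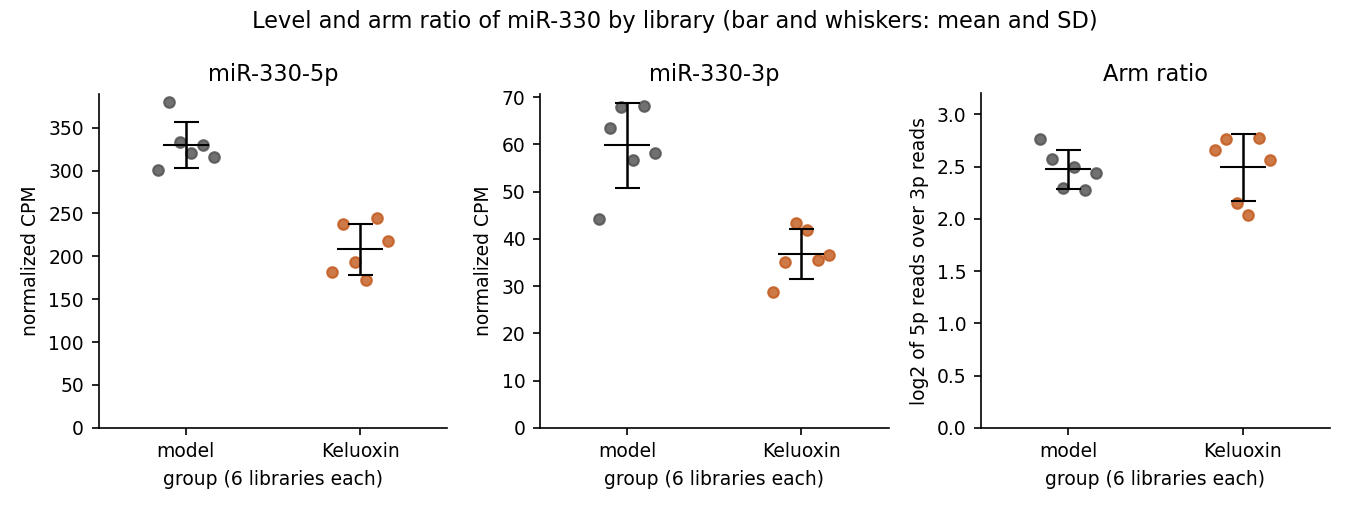
Level of miR-330-5p and miR-330-3p in normalized CPM (linear axes from 0) and the log2 ratio of 5p to 3p reads, with 1 point per library and the mean and SD of each group. The model and Keluoxin points are separate for both arms and overlap for the ratio, whose means are 2.47 and 2.49.

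The depth behind these values was 462 to 2489 reads per library for miR-330-5p and 67 to 507 for miR-330-3p, the lowest of both in Keluoxin replicate 5, out of 1933375 to 7892147 counted reads. Without any scaling beyond total reads, mir-330 as a whole stood at 366.9 ± 34.9 RPM (CPM over plain read totals) in model (341.6 to 432.5) and 259.6 ± 27.4 in Keluoxin (228.2 to 295.4), again without overlap. On that scale the log2 fold change was −0.50 for each arm, but the groups overlapped for miR-330-3p alone. Keluoxin replicate 4 had 316 miR-330-3p reads of 5815405, a larger share than the 188 of 4138605 in model replicate 1. The separation of this arm in CPM thus depends on the scaling, whose factor was 1.30 for Keluoxin replicate 4. Keluoxin replicate 4 differed from the other libraries in the mean length of all its reads, 21.1 nt against 21.5 nt to 21.7 nt, and results are given without it where this mattered.

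The balance of the arms did not differ between the groups beyond its error. The model libraries held 4.84 to 6.80 reads of miR-330-5p per read of miR-330-3p (mean 5.60 ± 0.73) and the Keluoxin libraries 4.12 to 6.90 (mean 5.76 ± 1.19, SD, n = 6 each). As a log2 ratio the difference was 0.02 (SE 0.17, 95% interval −0.36 to 0.39), with a limma adjusted p of 0.951 over 148 precursors. In the same test 22 precursors (14.9%) passed the threshold, and only 3 of the 148 had a smaller difference in size than mir-330; the median size was 0.44. The interval still allows a shift of up to about 0.39 log2 units either way, and the sign of the small difference turned in 5 of 12 fits with 1 library left out.

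miR-330-5p was fixed at its 5′ end and varied at its 3′ end. Of its reads, 16959 of 16969 (99.9%) began at the RefSeq first base, so that almost all carried the seed CUCUGGG. By contrast 77.97% of the reads ended before the RefSeq last base, 16.3% ended at it and 5.75% after it. In length, 41.05% of reads had 21 nt, 30.04% had 20 nt, 16.3% had 22 nt and 4.47% had 23 nt.

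miR-330-3p began mostly 1 base after the RefSeq start and less often at it. Of its 3135 reads, 2527 (80.6%) began at precursor position 62 and 604 (19.3%) at position 61, the RefSeq start. The reads of the first kind have the seed AAAGCAC and those of the second CAAAGCA. In the predicted fold position 62 pairs with position 42, the last base of the 21-nt miR-330-5p read, and position 61 with position 43, the RefSeq last base. Of 183 arms that match a RefSeq sequence and had 50 or more reads in each library, 28 (15.3%) had under 50% of their reads at the RefSeq start.

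The share of miR-330-3p reads with the later start did not separate the groups. It ran from 79.3% to 81.3% in model (mean 80.5 ± 0.8) and from 77.2% to 88.1% in Keluoxin (mean 81.7 ± 3.8), a difference of 1.27 percentage points (SE 1.57, exact permutation test, adjusted p = 0.502). For miR-330-5p the share at the main start was 99.91 ± 0.14% in model and 99.97 ± 0.06% in Keluoxin (exact permutation test, adjusted p = 0.502). At this depth no change of seed between the groups was detectable in either arm.

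The 3′ ends of miR-330-5p did differ. Its mean read length was 20.75 ± 0.07 nt in model (20.67, 20.75 and 20.88 as lowest, median and highest) and 20.93 ± 0.11 nt in Keluoxin (20.80, 20.95 and 21.06). The longer mean in Keluoxin, by 0.18 nt (SE 0.053), passed the test (exact two-sided permutation test, p = 0.0130, adjusted p = 0.0404 over 8 measures), although the groups overlapped. Over 235 arms with 50 or more reads in each library the median difference was 0.02 nt, and 31 arms had a larger one. The share of reads with the commonest end, position 42, ran from 37.8% to 46.04% in model (mean 42.5 ± 3.0) and from 35.9% to 40.8% in Keluoxin (mean 38.5 ± 1.7). This fall of 4.02 percentage points also passed (exact permutation test, adjusted p = 0.0476), with overlapping groups. Over the 235 arms the median difference in this share was 2.94 points, upwards, and 33 arms had a lower difference than miR-330-5p. Both calls are close to the threshold: the length call was kept in 3 of 12 fits with 1 library left out, with differences of 0.15 to 0.20 nt, and the end call in 2 of 12, with −4.97 to −3.31 points.

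The following split by the RefSeq end was made after these values were seen and is given without a test. miR-330-5p reads that end before the RefSeq last base made up 78.3% to 85.3% of the arm in model (mean 81.2 ± 2.4) and 66.3% to 76.2% in Keluoxin (mean 71.3 ± 4.0), with no overlap. Reads ending at the RefSeq last base made up 14.2 ± 1.6% and 20.6 ± 2.7%, again with no overlap (as in 22 of 183 arms, 12%), and reads ending beyond it 4.54 ± 1.15% and 8.06 ± 1.93%. Among the 183 arms with a RefSeq end, 14 (7.65%) had a lower share of early ends in every Keluoxin library, the median difference was −1.12 points (quartiles −4.20 and 2.01), and 11 arms had a lower difference than the −9.96 points of miR-330-5p. For miR-330-3p the share of early ends was 30.3 ± 4.0% in model and 23.9 ± 5.0% in Keluoxin, a difference of −6.42 points with overlapping groups.

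**Figure D2:**
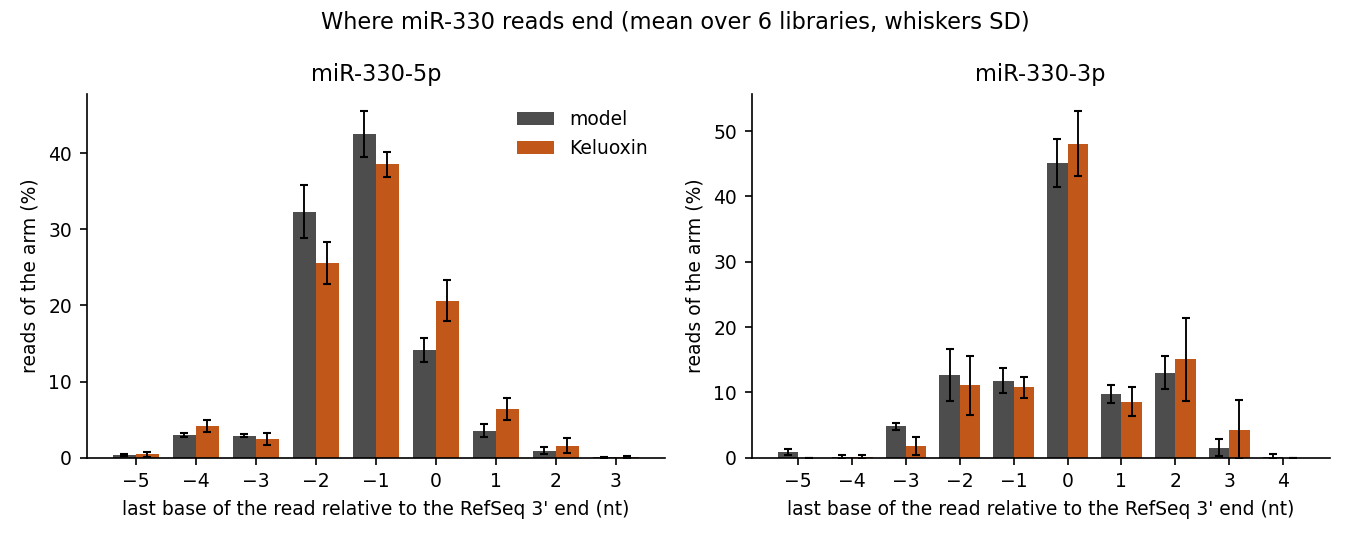
Share of each arm's reads (%) by the distance of their last base from the RefSeq 3′ end (nt; negative values are shorter), as group means with SD over 6 libraries. For miR-330-5p the bars at −1 and −2 are the tallest and are lower in Keluoxin, while those at 0 and beyond are higher. The small bars left of −2 go both ways. Reads ending at precursor position 39 are higher in Keluoxin (4.15% against 3.00%) and those ending at position 40 lower (2.50% against 2.92%).

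The difference in the level of miR-330-5p was mostly in its reads of 20 and 21 nt. Reads of 20 nt stood at 86.15 to 125.6 CPM in model and 45.20 to 68.22 CPM in Keluoxin (means 106.7 ± 16.3 and 53.13 ± 10.02). Reads of 21 nt stood at 125.1 to 174.8 CPM and 65.49 to 97.08 CPM (means 140.6 ± 18.3 and 80.4 ± 14.3). Neither length overlapped between the groups, as for the arm as a whole. All reads of 18 nt together stood at 9.89 ± 0.94 and 8.51 ± 1.44 CPM, with overlapping groups. The exact 18-nt read among them was lower without overlap, at 7.17 ± 0.49 and 4.68 ± 0.95 CPM.

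Reads of the RefSeq length and above overlapped between the groups. Those of 22 nt ranged from 43.39 to 50.58 CPM in model and from 30.36 to 53.41 CPM in Keluoxin (means 46.5 ± 2.9 and 43.03 ± 8.69). Those of 23 nt stood at 11.5 ± 2.2 and 13.2 ± 2.7 CPM. Among reads with no differing base, those that end before the RefSeq last base had means of 195.4 ± 26 CPM (model) and 92.8 ± 15.9 CPM (Keluoxin), beside 22.9 ± 3.4 and 22.7 ± 6.1 CPM for those that end at or after it. The exact 21-nt and 20-nt reads were at 0.477 and 0.464 times their model level, and the exact RefSeq sequence at 0.892 times, with groups that overlapped (19.4 ± 3.5 and 17.3 ± 4.7 CPM).

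**Figure D3:**
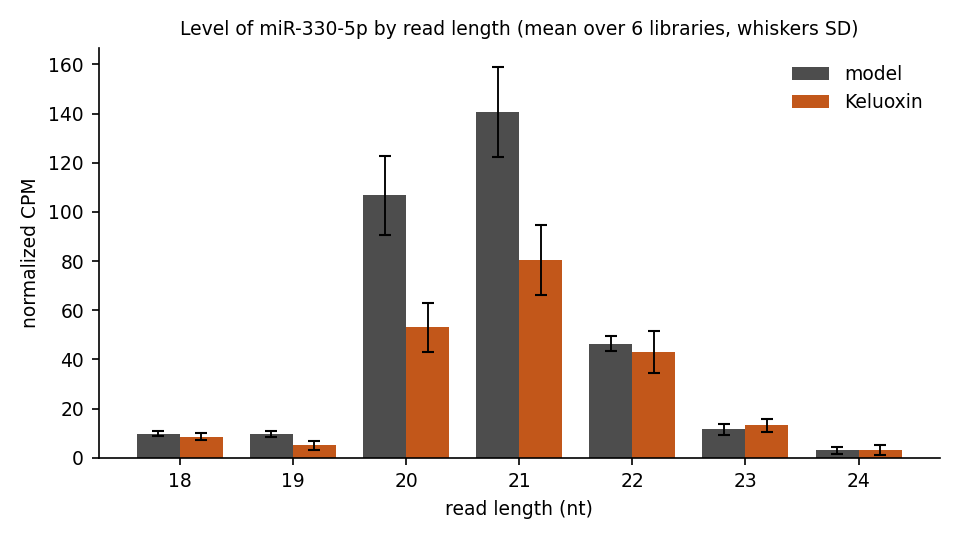
Level of miR-330-5p in normalized CPM by read length (nt), as group means with SD over 6 libraries. The 20-nt and 21-nt bars of Keluoxin are at 53.1 and 80.4 CPM against 106.7 and 140.6 in model, while the 22-nt bars, at 43.03 and 46.5, overlap.

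In miR-330-3p the reads of the commonest length and of the RefSeq length, 23 nt, both had lower means in Keluoxin. Those of 22 nt had means of 25.1 ± 5.6 and 15.1 ± 4.2 CPM, and its 23-nt reads of 9.93 ± 1.10 and 6.55 ± 0.71 CPM. The few reads of 25 nt, 97 in all, had a higher mean in Keluoxin, 1.84 ± 1.46 against 1.42 ± 0.95 CPM, with overlapping groups. Its reads with no differing base that end at or after the RefSeq end were at 0.54 times their model level, and those that end before it at 0.44 times. The mean length was 22.04 ± 0.11 nt in model and 22.31 ± 0.27 nt in Keluoxin, which did not pass (difference 0.27 nt, SE 0.12, exact permutation test, adjusted p = 0.0831). Of the 12 fits with 1 library left out, 11 did not pass either; the one without Keluoxin replicate 4 did (0.34 nt, exact permutation test, adjusted p = 0.0216). The share of reads at the commonest end, position 83, was 45.1 ± 3.7% and 48.1 ± 5.0% (exact permutation test, adjusted p = 0.343).

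Many reads carried 1 base that differs from the precursor, mostly the last one. Of the differing reads, 85.6% of miR-330-5p and 91.3% of miR-330-3p differed at their last base, and 53 (0.312%) and 12 (0.383%) of all reads of the arms differed within bases 2 to 8. The commonest forms are written with the differing base in the read, positions being counted from 1 at its 5′ end, and they show the bases that stand at the end of miR-330-5p.

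miR-330-5p, G21A: uCUCUGGGccugugucuuaga
miR-330-5p, G20A: uCUCUGGGccugugucuuaa
miR-330-5p, C22U: uCUCUGGGccugugucuuaggu

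Each of these has the letters of a shorter exact read with 1 A or U after it, and such an added base cannot be told apart from a changed one. They had 1348, 912 and 835 reads. In miR-330-5p the differing last base was A in 3264 reads, U in 1514, C in 418 and G in 285.

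The share of differing reads was higher in Keluoxin for both arms, and it was higher for most other arms as well. For miR-330-5p it ran from 29.9% to 36.5% in model (median 34.6) and from 40.5% to 47.5% in Keluoxin (median 45.2), with no overlap. The means were 34.0 ± 2.7% and 44.6 ± 2.4%, a difference of 10.6 percentage points (SE 1.47, exact two-sided permutation test, p = 0.00216, the smallest that 6 against 6 libraries can give, adjusted p = 0.0173). For miR-330-3p the means were 27.4 ± 3.9% and 40.4 ± 8.2%, a difference of 13.0 points (SE 3.72, exact permutation test, adjusted p = 0.0404) with overlapping groups, a call kept in 4 of 12 fits with 1 library left out.

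The same share over all counted reads of the libraries was 40.7 ± 1.7% in model and 48.1 ± 2.5% in Keluoxin, also with no overlap. Of the same 235 arms, 220 had a higher share in Keluoxin, 86 (36.6%) had one without overlap, and the median difference was 7.49 points (quartiles 4.62 and 9.41). A higher difference than that of miR-330-5p was seen in 30 of them, and than that of miR-330-3p in 5. How far the library-wide shift makes up that of miR-330 was not tested. Counting each distinct sequence once, the miR-330-5p share differed by −0.44 points, in the opposite direction.

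**Figure D4:**
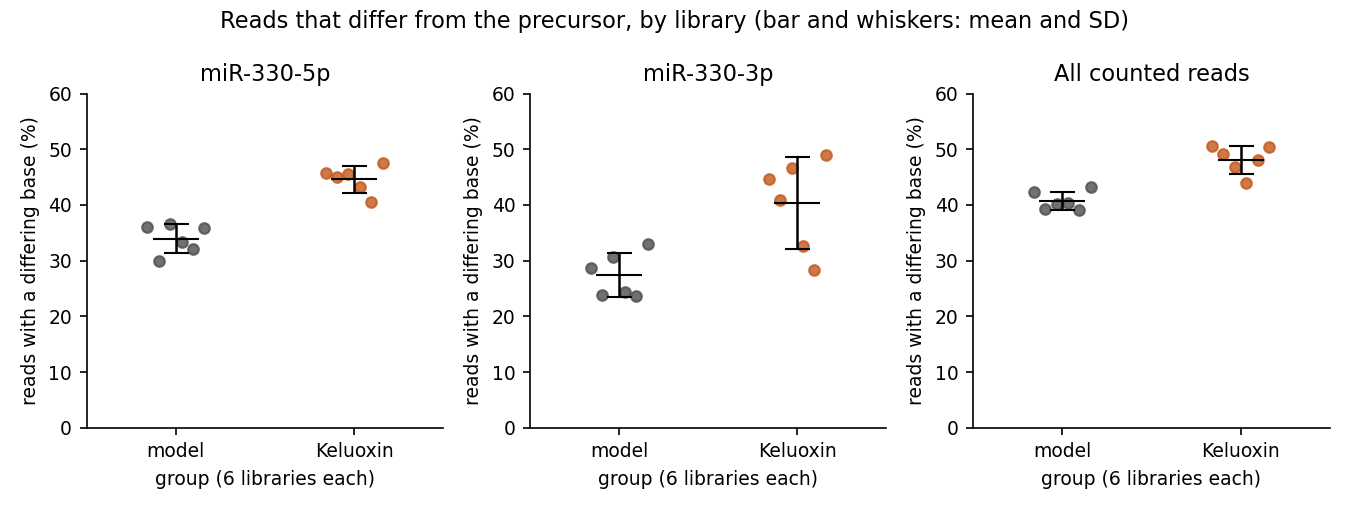
Share of reads with a base that differs from the precursor (%), for miR-330-5p, miR-330-3p and all counted reads, with 1 point per library and the mean and SD of each group. Keluoxin is higher in all 3 panels, and the groups overlap only for miR-330-3p.

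The last base was then described on its own, after these values had been seen and with no test. Reads whose last base differs made up 25.1% to 32.7% of miR-330-5p in model (mean 29.6 ± 3.1) and 33.7% to 40.6% in Keluoxin (mean 37.5 ± 2.6). The groups did not overlap, beside 6.38% of 235 arms with a higher share and no overlap, and 20 arms had a higher difference than its 7.88 points. In miR-330-3p they made up 25.9 ± 3.8% and 36.0 ± 7.8%, with overlap. In miR-330-5p reads whose last base differs, that base was A in 64.5 ± 3.7% in model and 52.0 ± 2.6% in Keluoxin, U in 25.9 ± 2.1% and 30.0 ± 2.2%, C in 5.92 ± 2.54% and 10.7 ± 0.8%, and G in 3.68 ± 0.86% and 7.41 ± 2.49%. Taken over all miR-330-5p reads, a differing A stood at 19.0 ± 1.7% and 19.5 ± 1.5% and a differing U at 7.71 ± 1.35% and 11.2 ± 1.4%. In these shares the groups overlapped for A and for U, which reached 9.44% in model and went down to 9.07% in Keluoxin. The groups did not overlap for G or C. How many other arms have no overlap for these bases is not given here. The difference of 3.54 points for U was exceeded by 19 of 235 arms, whose median was −0.0002 points. The differences of 1.69 points for G and 2.22 for C were below the medians of 2.33 and 2.88. In miR-330-3p a differing U stood at 11.5 ± 2.0% and 14.8 ± 2.7% of reads, with overlapping groups.

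**Figure D5:**
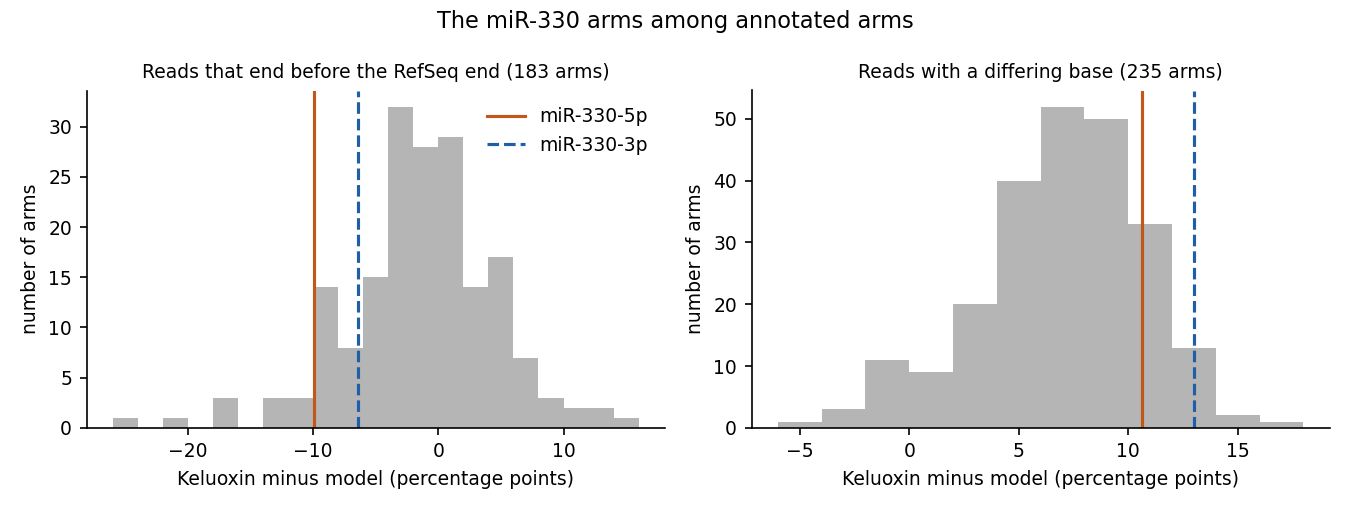
Number of annotated arms by their Keluoxin minus model difference (percentage points) in the share of reads that end before the RefSeq end (183 arms) and in the share of reads with a differing base (235 arms), with lines at the 2 miR-330 arms. The miR-330 lines lie at −9.96 and −6.42 points on the left and at 10.6 and 13.0 on the right, towards the outer part of both distributions.

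Other miRNAs that share a seed with miR-330 were compared because they could meet the same target sites. Among 1738 mature miRNAs in RefSeq, 1 other has the seed CUCUGGG, miR-326-3p, a neuronal miRNA, and 1 other has CAAAGCA, miR-6240. No listed miRNA has the seed AAAGCAC of the commonest miR-330-3p read.

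miR-326-3p: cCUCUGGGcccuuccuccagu

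The mean level of miR-326-3p was 71.9 ± 11.8 CPM in the model group and 96.8 ± 12.8 CPM in the Keluoxin group (SD, n = 6 each), a log2 fold change of 0.43 (SE 0.14) that did not pass (edgeR adjusted p = 0.0520). In the model libraries it was the less abundant carrier of CUCUGGG beside the 329.8 CPM of miR-330-5p. Of the reads counted on the 5p arm of mir-6240, 0.234% began at the RefSeq start (mean over the 12 libraries), so almost none carried CAAAGCA, and their level is not set beside that of miR-330-3p.

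In abundance miR-330-5p was the 121st of 511 annotated arms tested and miR-330-3p the 236th, by mean CPM over the 12 libraries. The arms just above miR-330-5p were miR-708-3p (275.1 CPM) and miR-344-3p (272.1), and those just below miR-370-3p (265.5) and miR-382-5p (258.3). Around miR-330-3p, at 48.3 CPM, stood miR-212-3p, miR-337-5p, miR-181c-3p and miR-674-5p, between 50.4 and 45.4 CPM. These neighbours differ from the miR-330 arms by less than the SD over the 12 libraries, 69.2 CPM for miR-330-5p and 13.9 for miR-330-3p.

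The annotated arms whose log2 CPM followed miR-330-5p most closely over the 12 libraries were miR-744-5p (Pearson r 0.90), miR-126a-3p (0.88), miR-25-3p (0.88), miR-770-3p (0.87) and miR-100-5p (0.87). For miR-330-3p they were miR-3099-3p (0.96), miR-125b-5p (0.93), miR-666-5p (0.91), miR-203-3p (0.89) and miR-183-3p (0.90). All 10 had lower means in Keluoxin, a direction that this ranking favours, since both miR-330 arms were lower there. Within groups the r ran from 0.37 to 0.82. The 2 miR-330 arms had an r of 0.81 with each other, and of 0.13 within groups. These are descriptions over libraries that also share their scaling.

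A list of 32 neuronal and retinal miRNA names gives the setting in which miR-330 was measured, and 56 of their arms were tested. Of all 811 arms 141 (17.4%) were called, 77 higher and 64 lower in Keluoxin. Among the 511 annotated arms, the kind in this list, 22 were higher and 48 lower. Of the list 1 rose in Keluoxin and 7 fell. The one that rose was miR-181c-5p, from 114.9 ± 10.4 to 157.1 ± 15.9 CPM. Those that fell were miR-182-5p, made in the photoreceptor cluster, miR-183-3p, miR-125b-5p, miR-129-5p, miR-129-1-3p, miR-335-3p and miR-219a-1-3p. The median log2 fold change of the list was −0.10, beside 0.04 over all arms and −0.12 over the 511 annotated ones. Its most abundant members were miR-182-5p, miR-183-5p and miR-9-5p, at 151520, 148190 and 63966 CPM over the 12 libraries.

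Markers of the neural retina were high in all libraries, and those of other cell types were present too. The 5 of 5 neural retina markers (miR-182-5p, miR-183-5p, miR-96-5p, miR-124-3p and miR-9-5p) summed to 460360 to 543170 CPM in model and 270740 to 496710 in Keluoxin. They did not all go the same way. Only miR-182-5p passed the threshold as lower in Keluoxin. The mean of miR-96-5p was higher there, 52286 ± 5853 against 42823 ± 3670 CPM, and did not pass. The means of miR-183-5p, miR-124-3p and miR-9-5p were lower and did not pass. The single markers of endothelium, miR-126a-3p, and islet, miR-375-3p, ran from 1425 to 1927 and from 202.8 to 250.7 CPM in model, and from 912.0 to 1226 and from 151.3 to 182.2 in Keluoxin. The 3 of 3 epithelial markers summed to 156.8 to 302.2 and 99.8 to 160.8 CPM. Most of that sum was miR-203-3p, with means of 212.8 ± 56.1 CPM in model and 120.5 ± 20.5 in Keluoxin. The 3 of 3 erythroid markers summed to 53.3 to 73.1 and 52.3 to 720.8 CPM. The liver marker miR-122-5p stood at 1.18 to 4.90 and 2.39 to 41.2 CPM. The 2 of 2 pigment epithelium markers summed to 9296 to 12041 CPM in model and 10229 to 12084 in Keluoxin. For muscle, 3 of 3 markers summed to 294.7 to 425.6 and 282.6 to 1892 CPM. Mural markers (2 of 2) summed to 2450 to 4148 and 3227 to 6910 CPM, and leukocyte markers (2 of 2) to 8.56 to 18.3 and 12.2 to 22.7. In pigment epithelium, muscle, mural cells and leukocytes the groups thus overlapped. The part of any of these cell types in the level of miR-330 was not tested.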

How the data were processed

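The 12 retinal libraries (6 model, 6 Keluoxin) were prepared with a NEBNext kit and size-selected, per the labels' protocols. Of tools, the submitters' processing notes list Novoalign, Bowtie, cutadapt and bcl2fastq. Their versions and roles, the genome build and the miRBase release were not given in the sources. The authors deposited whole-number read counts per distinct sequence and precursor, without normalization, with the sequence, positions and differing bases in other columns, per the file headers. Sequences had at least 2 reads and 15 to 51 nt, so rare forms drop out of shallow libraries. Counts of sequences that match several precursors were divided by the authors, and the undivided reads in the tag name were used here. For mir-330 each read was counted whole, once. For every other arm, reads shared between arms were split equally among them in the levels and arm ratios. Of mir-330 reads, 2.30% also matched 7 other precursors, 1 of them annotated.

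Of 2142 arms, 811 passed the count filter of edgeR 4.0.16 (R 4.3.3, TMM scaling, quasi-likelihood test, Benjamini-Hochberg adjustment, threshold 0.05). The arm ratio, log2 of reads plus 0.5 on each arm, was tested with limma 3.58.1 over 148 precursors that had 10 or more reads per arm in 6 libraries. Lengths, main start, main end and differing reads were tested by exact two-sided permutation over all assignments of 6 and 6 libraries, adjusted over 8 measures. DESeq2 1.42.0, other scalings, filters and read sets, leaving out each library and a replicate block were alternatives. Folding used ViennaRNA 2.7.2, and sequences and coordinates came from RefSeq (GRCm38.p6) with GENCODE M21 for overlapping genes. Python 3.11.15, pandas 2.3.3, NumPy 2.4.6 and SciPy 1.17.1 did the rest.

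On simulated counts for the comparison of levels (794 arms), the fit recovered 10.6% of arms changed 1.5-fold, 42.9% of those changed 2-fold and 100% of those changed 4-fold, and called 0.332% of unchanged ones. For the arm ratio, with a simulated shift of 1 log2 unit in 37 of 148 precursors, 45.9% of these were found and 0 others called. The simulated counts gave every arm the same dispersion (spread between libraries), so those rates need not hold for miR-330. The simulated ratios used the SD of each precursor over all 12 libraries, which includes any group difference. Any 2 libraries differed by a chi-square per degree of freedom of at least 70.5, so none was a copy of another.

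The members, the neuronal and retinal list and the marker lists (neural retina, pigment epithelium, erythroid, liver, muscle, epithelium, endothelium, mural, leukocyte and islet) were chosen with earlier results of these data known. Arms named are both miR-330 arms, arms sharing a seed with them, the 5 annotated arms with the highest correlation with each, the 2 above and 2 below each in level, and, of the list, the 3 most abundant and those past the threshold. Intervals cover counting and library spread only, since the reads carry no molecular identifiers.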

Additional observations from a re-analysis of the deposited data

Results flagged for a closer look

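Of 22 group values checked, 1 sample was flagged as apart from the others of its group. In Keluoxin replicate 4, 99.85% of miR-330-5p reads began at the RefSeq start, while all reads did in the other 5 Keluoxin libraries. The gap came from 2 of the 1301 miR-330-5p reads of that library. Chance flags about 1 in 20 groups of untied values, a rate that does not apply here, where the other 5 are tied.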

How the results depend on the processing

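Both miR-330 arms were lower in Keluoxin in all 23 alternatives. With upper-quartile scaling the log2 fold changes were −0.93 and −0.98; with total reads they were −0.50 each. Leaving out 1 library gave −0.73 to −0.63 and −0.84 to −0.63. The count of arms called, 141, was 76 with annotated precursors only, 235 with DESeq2, 228 without model replicate 1 and Keluoxin replicate 4 together (a pair chosen after the data were seen), and 71 to 247 with 1 library left out (247 when model replicate 1 was left out, 86 for replicate 3 and 71 for replicate 4 of that group). The arm ratio ran from −0.037 to 0.11 with 1 library left out. Whether the title numbers pair the samples was not settled. Samples of the same number had correlations of deviations of 0.03 to 0.23, not every one above 0.1, and samples of different numbers were not compared. With the numbers as a replicate block the levels were −0.67 and −0.69, the ratio 0.02 and the count 132.

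Among reads with no differing base, the miR-330-5p length difference was 0.17 nt and its end difference −4.38 points, both past no threshold (exact permutation, adjusted p = 0.0736), and the miR-330-3p end difference reversed to −1.65. Counting each distinct sequence once gave 0.025 nt and −0.44 points of differing reads for miR-330-5p, and 0.42 nt and 5.97 points for miR-330-3p. Without the same pair the miR-330-5p values were 0.21 nt, −3.87 points for the end and 11.3 points for differing reads, and 14.8 points for miR-330-3p, none past the threshold, which 5 against 5 libraries can hardly reach. With reads that match 1 precursor only, the miR-330-5p end difference was −3.84 points and no longer passed (exact permutation, adjusted p = 0.0649). With 1 library left out, miR-330-5p differing reads ran from 9.81 to 11.4 points, all past the threshold, those of miR-330-3p from 11.3 to 15.4, the miR-330-5p length from 0.15 to 0.20 nt and end from −4.97 to −3.31, the miR-330-3p length from 0.20 to 0.34 nt, its start from −0.0022 to 2.17 points and its end from 1.83 to 4.11. The cause of these changes was not tested. With 67 to 507 reads per library, miR-330-3p shares are the least precise.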
